A study of Mus musculus with 73 samples.

Results

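The laminin chains *Lama1*, *Lama2*, *Lama3*, *Lama4*, *Lama5*, *Lamb1*, *Lamb2*, *Lamb3* and *Lamc1* were followed through 3 measurements of the mouse small intestine. These 9 genes were chosen by name and not by a cutoff on their values, though earlier results of these data were known. The table of microdissected stroma lists 8 of them among 20882 genes, with no row for *Lama1*. The tables of epithelium and of single cells list all 9, among 17399 and 21058 genes.

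Laminins are large secreted glycoproteins that build the basement membrane, the thin matrix sheet on which an epithelium rests. Each molecule joins an α, a β and a γ chain, and a cell secretes only those laminins whose chains it makes together. In the small intestine the sheet lies between the epithelium and the stroma, and both tissues contribute chains to it. The α chain carries the main sites for cell receptors, namely integrins and dystroglycan. The α chain of *Lama2* is known for skeletal muscle and nerve, that of *Lama4* for vessels, and those of *Lama3* and *Lama5* for epithelia. *Lamb3* encodes the β chain that pairs with the α chain of *Lama3* in the laminin of anchoring junctions, while *Lamc1* encodes the γ chain of most other laminins.

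Stroma was cut by laser capture microdissection (LCM) from 4 zones of the jejunum of male C57BL/6 mice aged 3 months. There were 6 sections of crypt from 3 mice, 8 of villus bottom from 5 mice, 7 of villus center from 5 mice and 8 of villus tip from 5 mice, each sequenced with SMART-seq. Single cells from 8 mice aged 3 months were sorted by surface antigens (12 gates as spelled in the labels, some of them set to hold pairs of cells) and sequenced with MARS-seq. Epithelium detached with EDTA from the proximal jejunum was sequenced 48 h after diphtheria toxin (DT) or saline in 4 mice each, aged 4 months. Mice of both these groups carried the Lgr5 allele that expresses a GFP and a diphtheria toxin receptor from the *Lgr5* locus, known to be active in epithelial stem cells of the crypt as well as in stromal cells of the villus tip, so that the toxin is not directed at 1 cell type. No group of mice without the allele was analysed here.

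*Lama2* (ENSMUSG00000019899) spans chr10:26980036-27619758 on the minus strand and *Lama4* (ENSMUSG00000019846) spans chr10:38965515-39110188 on the plus strand, in the GENCODE annotation of GRCm38. *Lama1* (ENSMUSG00000032796) lies at chr17:67697259-67822647 and *Lama3* (ENSMUSG00000024421) at chr18:12333819-12583013, both on the plus strand. *Lama5* (ENSMUSG00000015647) lies at chr2:180176373-180225859 on the minus strand. The β chain genes are *Lamb1* (ENSMUSG00000002900) at chr12:31265234-31329644, *Lamb2* (ENSMUSG00000052911) at chr9:108479736-108490530 and *Lamb3* (ENSMUSG00000026639) at chr1:193207699-193343878, all on the plus strand. *Lamc1* (ENSMUSG00000026478) lies at chr1:153218922-153332786 on the minus strand. *Lamb3* overlaps the coding genes *G0s2* and *Hsd11b1* on the other strand, and the other 8 overlap no coding gene. Whether reads of *Lamb3* and of these neighbours were told apart was not tested. In the stroma data the study used a strand-specific setting for a library kit that does not mark strand, and its effect on the levels was not tested.

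RefSeq (GRCm38.p6) gave promoters for 5 of the 9 genes. *Lama1*, *Lama3*, *Lama4* and *Lamc1* had no entry in the table used here. The 250 bases before the start are shown for *Lama2*, *Lamb1* and *Lamb3*. *Lama2* and *Lamb1* were the chains that passed a filter for a test in single cells below, and *Lamb3* was found in epithelial cells. Capitals mark the GC box core GGGCGG or its reverse complement. The starts used by RefSeq for *Lama2* and *Lamb3* lie inside the GENCODE genes, *Lamb3* has a second RefSeq promoter that is not shown, and the *Lamb1* window overlaps the first bases of the GENCODE gene.

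Lama2, GRCm38.p6, chr10:27616943-27617192, minus strand: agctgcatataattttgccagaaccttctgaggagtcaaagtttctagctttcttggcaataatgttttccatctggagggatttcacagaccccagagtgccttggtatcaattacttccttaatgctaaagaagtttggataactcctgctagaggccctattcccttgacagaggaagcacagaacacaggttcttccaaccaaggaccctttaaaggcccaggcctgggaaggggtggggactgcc
Lamb1, GRCm38.p6, chr12:31265043-31265292, plus strand: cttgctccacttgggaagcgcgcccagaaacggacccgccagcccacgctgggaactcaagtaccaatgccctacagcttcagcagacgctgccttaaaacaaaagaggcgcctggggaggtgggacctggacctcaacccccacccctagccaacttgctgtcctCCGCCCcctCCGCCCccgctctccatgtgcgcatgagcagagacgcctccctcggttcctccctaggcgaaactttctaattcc
Lamb3, GRCm38.p6, chr1:193301744-193301993, plus strand: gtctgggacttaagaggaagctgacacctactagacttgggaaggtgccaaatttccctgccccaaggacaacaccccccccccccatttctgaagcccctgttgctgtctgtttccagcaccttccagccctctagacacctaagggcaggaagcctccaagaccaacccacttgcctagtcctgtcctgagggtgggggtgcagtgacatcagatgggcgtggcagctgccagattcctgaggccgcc

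Of 3 motifs searched on both strands (TATAAA, the AP-1 site TGANTCA and GGGCGG), only the GC box core was found in these windows, with 2 copies for *Lamb1* and 0 for *Lama2* and *Lamb3*. Among 32851 promoters of the same length 32.7% held it, 12.4% held TATAAA and 6.75% held TGANTCA. The GC content was 47.2% for *Lama2*, 62.0% for *Lamb1* and 58.8% for *Lamb3*, against a median of 52.4%. A match is a description of letters only.

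In single cells 6 chains, *Lamb1*, *Lamc1*, *Lama2*, *Lama4*, *Lamb2* and *Lama1*, were found in mesenchymal cells and were almost absent from epithelial cells, and they are called stromal chains here. *Lamb3* was found in epithelial cells only among these 2 classes, *Lama3* was found in both with overlapping levels, and *Lama5* was nearly undetected in either. Of 2347 cells kept, 317 from 5 mice had a UMI (1 tagged RNA molecule) of *Pdgfra* or *Dcn* and none of *Epcam* (mesenchymal), and 1190 from 8 mice had *Epcam* and neither of the former (epithelial). The median depth was 1030 UMIs in mesenchymal and 2022 in epithelial cells, so mesenchymal cells were the shallower class. Gates set to hold pairs gave 52 (EPCAM with PDGFRa) and 23 (NT5E with PDGFRa) of the 105 mesenchymal cells of mouse A. Such gates also gave 277, 83 and 34 of the epithelial cells, the last in mouse H. The classes were checked with markers that did not define them. The summed level of 5 mesenchymal markers other than *Pdgfra* and *Dcn* was 624 to 1939 per 100000 UMIs in the 4 mice with at least 5 mesenchymal cells and 0 to 1.14 in epithelial cells of 8 mice. That of 7 epithelial markers other than *Epcam* was 9.43 to 54.8 in mesenchymal cells and 528 to 916 in epithelial cells. In mesenchymal cells smooth muscle markers summed to 24.7 to 114 per 100000 UMIs, endothelial markers to 0 to 1.51 (4 of 6 genes at 0), immune markers to 0 to 2.74 (4 of 6 at 0) and glial markers to 0 (4 of 4 at 0).

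*Lamb1*, the β chain of early and widespread laminins, was the leading chain of mesenchymal cells, with 247 UMIs in 114 of the 317 cells (35.96%, 95% exact binomial interval 30.7 to 41.5). Epithelial cells held 3 UMIs of it in 2 of 1190 cells (0.168%). With each cell thinned to 400 UMIs the shares were 19.0% and 0.105%. Intervals and floors on UMIs cover counting error only. Per mouse, *Lamb1* stood at 76.7, 89.1, 49.5 and 58.5 per 100000 UMIs in the mesenchymal cells of mice A, B, E and G, with 4 UMIs each in mice B and E. In the epithelial cells it stood at 0.245 in mouse A and at 0 in the other 7 mice. Every mesenchymal value was above every epithelial value. The pooled level in mesenchymal cells was 640 times that in epithelial cells (counting interval 216 to 3123).

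*Lama2*, the α chain best known from muscle, had 101 UMIs in 61 mesenchymal cells (19.2%, interval 15.1 to 24.02) and 0 in 1190 epithelial cells (by a floor of 3 cells, at most 0.252% held a UMI, which does not limit the share that expressed the gene). In thinned cells the mesenchymal share was 7.54%. The level was 20.1, 22.3, 12.4 and 28.7 per 100000 UMIs in mice A, B, E and G, where the values of mice B and E rest on 1 UMI each. Against a floor of 3 UMIs over all epithelial cells, *Lama2* was at least 262-fold higher in mesenchymal cells.

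*Lama2* and *Lamb1* were the only chains that passed the filter on low counts for a test over mice (edgeR quasi-likelihood, 4 mesenchymal and 8 epithelial sums), which asks for a minimum in at least 4 sums. They passed it through the mesenchymal sums alone, so the direction of their calls was set by the filter, and the calls are given as a description. Both of these 2 chains were called higher in mesenchymal cells, with adjusted p = 1.4e-14 for *Lama2* and adjusted p = 5.4e-17 for *Lamb1*. Of all 2780 genes tested 63.5% were called, 25% higher and 38.6% lower, so a call was common in this test (66.5% of genes were under an unadjusted p of 0.05). The fitted difference of *Lamb1* was 8.60 ± 0.62 on the log2 scale, where ± is an approximate SE taken back from the F statistic. That of *Lama2* was 8.88, and it depends on the prior count, since every epithelial sum was 0, so no SE is given. The median over all genes was -0.54. The 2 chains were also above every epithelial mouse in every mesenchymal mouse, which held for 12.8% of the genes tested, while 16.5% were below in the same sense. With no filter on low counts 8 of 9 chains were called, 7 higher (15% of all genes) and *Lamb3* lower (12.4%), with 27.5% of genes called in all. *Lama5*, with 2 UMIs in 1 cell, was among the 7 (adjusted p = 0.0295, edgeR), and *Lama3* was the chain not called (-1.42, adjusted p = 0.116, edgeR). The call of *Lama5* rests on 1 cell, so calls at such counts cannot be relied on. The calls without the filter are given as a description.

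**Figure D1:**
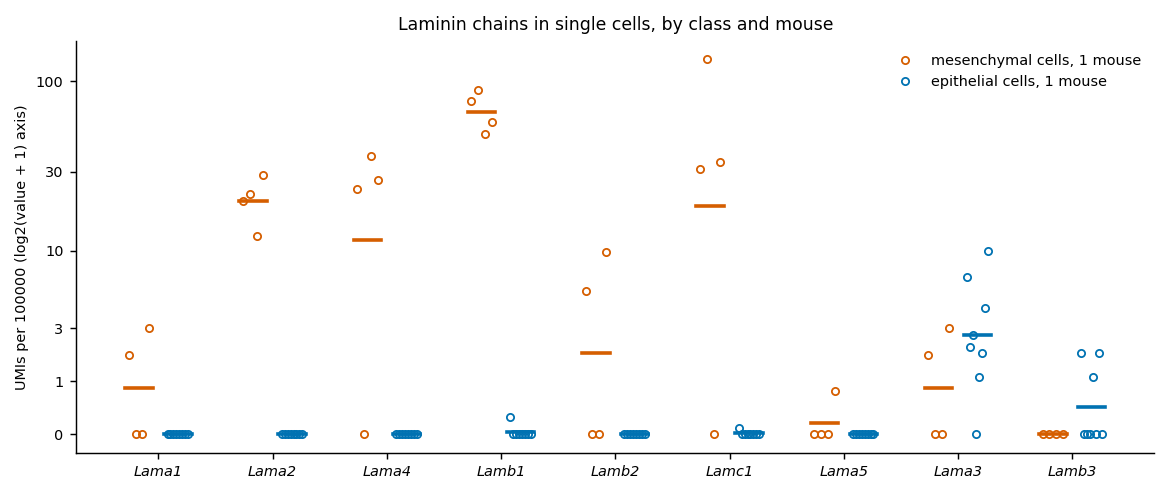
UMIs of each laminin chain per 100000 UMIs on a log2(value + 1) axis, in the mesenchymal (orange) and epithelial (blue) cells of each mouse, with the mean of the log values as a line. *Lamb1* and *Lama2* were above 0 in all 4 mice with at least 5 mesenchymal cells. In epithelial cells *Lama3* was above 0 in all but 1 of 8 mice, while *Lamb3* reached at most 1.88 and was at 0 in 5 of 8.

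*Lama4*, *Lamc1*, *Lamb2* and *Lama1* did not pass the filter and are described by their counts. *Lama4* and *Lamc1* had about as many UMIs as *Lama2* or more, but each was at 0 in 1 of the 4 mice. *Lama4*, the α chain of vessel and mesenchymal laminins, had 100 UMIs in 50 mesenchymal cells (15.8%) and 0 in epithelial cells, at least 259-fold higher. It stood at 23.7, 0, 37.1 and 26.8 per 100000 UMIs in mice A, B, E and G, where the value of mouse E rests on 3 UMIs in 1 cell. *Lamc1*, the common γ chain, had 131 UMIs in 80 mesenchymal cells (25.2%) and 1 in epithelial cells, a ratio of 1018 with a counting interval of 180 to 40500. It stood at 31.1, 134, 0 and 34.3 per 100000 UMIs in the same mice, where the value of mouse B rests on 6 UMIs in 2 cells. *Lamb2*, the β chain of synaptic and mature vessel laminins, had 32 UMIs in 18 mesenchymal cells (5.68%) and 0 in epithelial cells, at least 82.9-fold higher. *Lama1*, the α chain of embryonic basement membranes, had 10 UMIs in 6 mesenchymal cells (1.89%) and 0 in epithelial cells, at least 25.9-fold higher. Mice B and E gave 6 and 12 mesenchymal cells, so their zeros are not informative and their other values are uncertain.

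**Figure D2:**
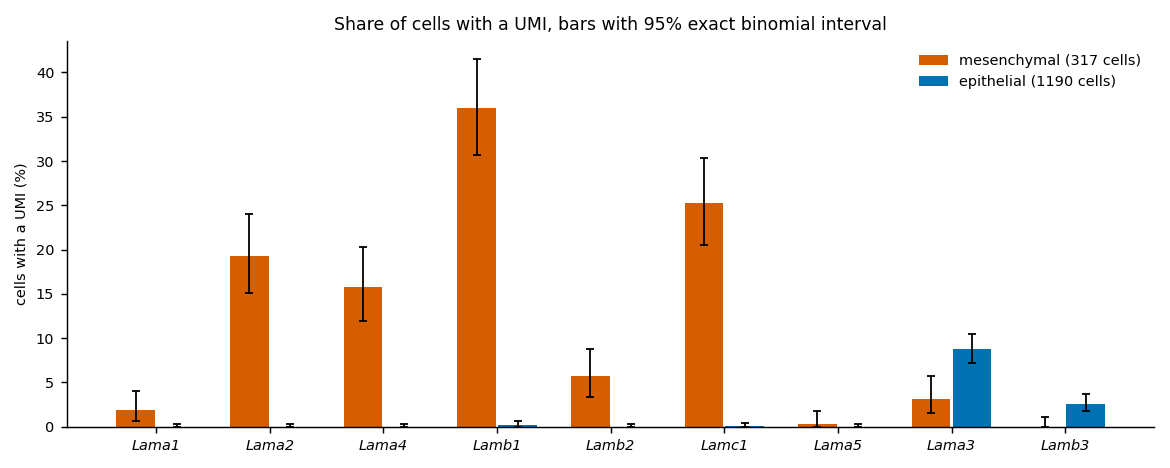
Share of mesenchymal (317) and epithelial (1190) cells with at least 1 UMI of each laminin chain, in percent, with 95% exact binomial intervals that cover counting error only. The mesenchymal share was highest for *Lamb1* (35.96%), and *Lama3* had the highest epithelial share (8.74%).

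*Lama3*, the α chain of the laminin that anchors epithelia, had 147 UMIs in 104 epithelial cells (8.74%, interval 7.20 to 10.5) and 10 UMIs in 10 mesenchymal cells (3.16%, interval 1.52 to 5.73). Thinned to 400 UMIs the shares were 2.19% and 0.823%. None of 37 immune cells had a UMI (by 3 cells, at most 8.11% held one) at a median depth of 964 UMIs. *Lama3* was also seen in 20 of 761 cells with no marker (2.63%) and in 1 of 17 endothelial cells. The epithelial level was 1.89 times the mesenchymal one, with a counting interval of 1.0 to 4.03. Across mice A to H the epithelial level was 6.78, 2.13, 2.64, 0, 1.12, 1.90, 4.20 and 9.95 per 100000 UMIs. Mesenchymal cells stood at 1.83 and 3.02 in mice A and G and at 0 in mice B and E, inside the epithelial range. The 10 *Lama3* cells held 1 UMI each, and the epithelial marker sum given above in mesenchymal cells was 17.3 per 100000 UMIs in the median mouse against 827 in epithelial cells. Its part in these UMIs was not tested.

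*Lamb3* had 38 UMIs in 31 epithelial cells (2.61%, interval 1.78 to 3.68) and 0 in 317 mesenchymal cells (by 3 cells, at most 0.946% held a UMI). It was at least 1.63-fold higher in epithelial cells, a weak bound at this depth. It was seen in mice A, E and G, at 1.88, 1.12 and 1.88 per 100000 UMIs, and was at 0 in the other 5 mice. *Lama5*, the α chain of mature epithelial and vessel basement membranes, had 2 UMIs in 1 mesenchymal cell and 0 in epithelial cells, too few for a ratio.

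Within cells, 199 of 317 mesenchymal cells (62.8%) had a UMI of at least 1 of the 6 stromal chains, and 94 had at least 2 of them. Among epithelial cells 2 of 1190 had at least 1 of them. The 6 stromal chains were named from these same cells, so this contrast between the classes follows from the choice. *Lama3* or *Lamb3* was found in 123 of 1190 epithelial cells (10.3%) and in 10 of 317 mesenchymal cells (3.16%). Of these 10 mesenchymal cells 9 also had a stromal chain. *Lamc1* was found in 25 of the 61 *Lama2* cells (41.0%) and *Lamb1* in 27 of them (44.3%). *Lama2* and *Lama4* were found together in 9 cells, 14.8% of *Lama2* cells and 18% of *Lama4* cells. In epithelial cells 12 of the 31 *Lamb3* cells (38.7%) also had *Lama3*. These overlaps rise with the depth of a cell, and they are given without a test.

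Chain levels by the marker that placed a cell among the mesenchymal cells are given without a test. *Lamb1* stood at 122 per 100000 UMIs in the 24 cells with *Pdgfra* only, 45.8 in the 193 with *Dcn* only and 85.3 in the 100 with both. *Lama2* was at 5.31, 27.4 and 26.3 in the same order, where the first value rests on 1 UMI. *Lama4* was at 15.9, 20.5 and 35.7. A plate of mouse G gave 168 of the 317 mesenchymal cells. Without that plate, an alternative chosen after seeing the data, the fitted difference was 7.91 for *Lama2* and 7.59 for *Lamb1*, with the same limit from the filter.

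In the microdissected stroma no laminin chain passed the test between zones. The level is given in ppm (parts per 1000000), from TPM (transcripts scaled to a fixed total) rescaled after genes of enterocytes were removed, so it is a value per transcript length, with no record of depth. The median over the 18 means per mouse and zone was 37.0 ppm for *Lama5*, 22.3 for *Lamc1*, 18.2 for *Lamb3*, 14.5 for *Lamb1*, 6.93 for *Lama4*, 3.36 for *Lama2*, 1.49 for *Lama3* and 1.22 for *Lamb2*. An exact sign-flip test over 5 mice cannot go below p = 0.0625, so it could not separate neighbours in this order (7 pairs, adjusted p from 0.4375 to 1.0). *Lamb1* was above *Lama4* in 5 of 5 mice, by 0.97 ± 0.46 on the log2 scale (SD, exact p = 0.0625). For the other 6 pairs the mean difference was smaller than its SD over mice. In these samples fewer cells of a type and less RNA per cell cannot be told apart.

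*Lama2* was highest in crypt stroma in mouse 2. The crypt values were 2.59, 113 and 9.22 ppm in mice 1, 2 and 3. At the tip mice 1 to 5 had 0.314, 4.12, 0.593, 7.22 and 9.03 ppm. The villus bottom stood at 0.3004, 2.23, 0.554, 10.1 and 7.18 ppm. In each of the 3 mice with both zones the crypt was above the tip, while the tips of mice 4 and 5 lay within the crypt range. The 2 sections behind the highest value read 1.502 and 224.7 ppm. The fitted difference, tip minus crypt, was -2.48 ± 0.99 (SE) on the log2(ppm + 1) scale (95% interval -4.58 to -0.39), with p = 0.023 and adjusted p = 1.0 (limma). For villus bottom minus crypt it was -2.60. The test called 0 of 8 chains and 0 of 13535 genes (0%). At an unadjusted p under 0.05 it marked 1 of 8 chains and 3.3% of the genes for the tip, and 1 of 8 chains and 2.73% for the bottom. From villus bottom to tip 0 of 8 chains moved in 1 direction in all 5 mice, where 3.43% of genes were higher and 6.01% lower in all. From crypt to bottom *Lama2* alone was lower in all 3 mice (12.3% of genes) and 0 chains were higher (11.7%). With only the first section of each mouse and zone the tip difference of *Lama2* was 0.76, and without mouse 2 it was -1.48.

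*Lama5* had the highest median level and the widest spread between sections. The crypt values were 12.5, 13.2 and 44.5 ppm in mice 1 to 3. At the tip mice 1 to 5 had 0.918, 527.2, 48.2, 5.50 and 116 ppm. The tip of mouse 2 had 1 section at 0 and 1 at 1054 ppm. The tip was above the crypt in 2 of 3 mice. The difference, tip minus crypt, was 1.31 on the log2 scale (95% interval -1.44 to 4.06), and without mouse 2 it was -0.33.

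**Figure D3:**
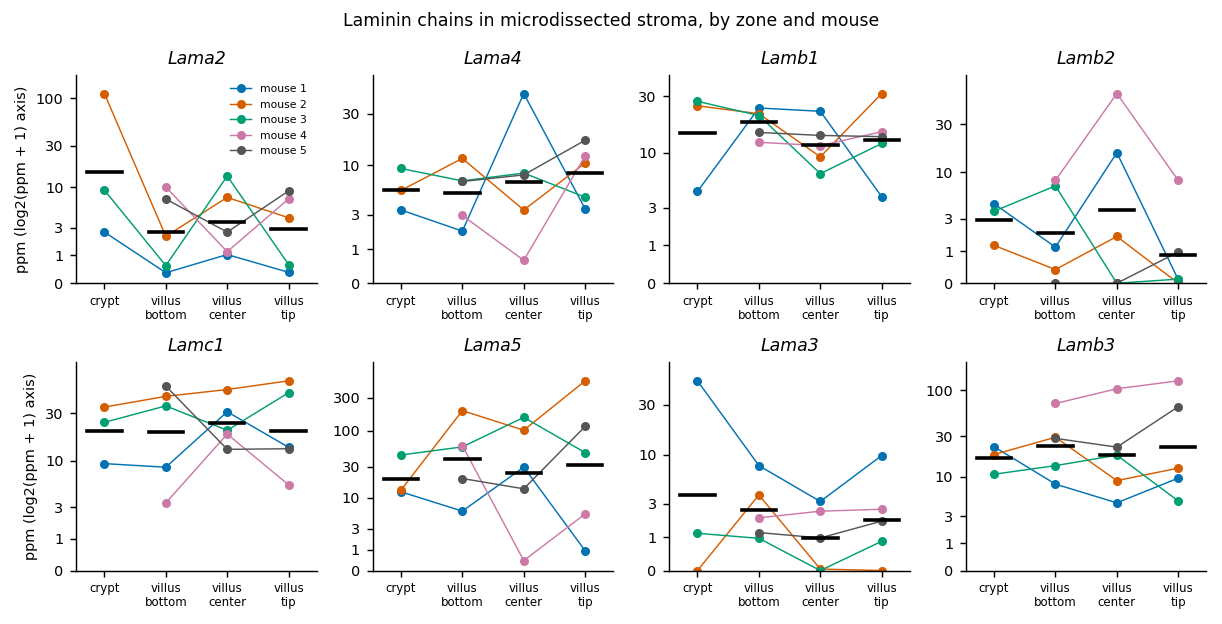
Level of 8 laminin chains in ppm on a log2(ppm + 1) axis, by stromal zone, with 1 line per mouse (crypt 3 mice, villus zones 5 mice) and the mean of the log values as a black bar. *Lama2* reaches 113 ppm in the crypt of mouse 2 and *Lama5* 527.2 ppm in its villus tip, and the zones overlap for each chain.

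The other stromal chains showed no common direction. *Lamc1* was higher at the tip than in the crypt in 3 of 3 mice, which held for 6.04% of all genes, with a difference of 0.48 (95% interval -1.11 to 2.06). *Lamb1* had 4.38, 24.9 and 27.1 ppm in the crypts of mice 1 to 3 and 3.89 to 31.5 ppm at the tips, a difference of -0.17. *Lama4* had a difference of 0.58 (95% interval -1.48 to 2.65). Its villus center value in mouse 1, 45.9 ppm, rests on 1 section at 91.6 and another at 0.271 ppm.

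*Lamb2* was highest in a pair of villus center samples. It stood at 58.9 ppm in the villus center of mouse 4 and at 31.2 ppm in 1 center section of mouse 1. In crypt, villus bottom and villus tip it was at most 8.20 ppm as a mean and 13.1 ppm in a section. The summed smooth muscle marker level was 957 TPM in the center of mouse 4 and 3887 TPM in that of mouse 1, and it was 5.45 to 178 TPM over crypt, villus bottom and villus tip. The mesenchymal markers were also highest in these centers, at 584 and 1108 TPM, but the center of mouse 3 had 496 TPM with *Lamb2* at 0. The mean of *Lamb2* over the center sections of mouse 1 was 15.7 ppm, below that of mouse 4. At the tips *Lamb2* was 0 in mouse 2, with 177.5 TPM of muscle markers, and 8.18 ppm in mouse 4, with 9.91 TPM. The part of these cells in the values was not tested. *Lamb2* was lower at the tip than in the crypt in 3 of 3 mice, with a difference of -1.51 (95% interval -3.58 to 0.57).

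*Lamb3* and *Lama3* were also read in stroma. *Lamb3* had 22.7, 18.4 and 10.7 ppm in the crypts of mice 1 to 3, and 9.62, 12.7, 4.93, 126.9 and 65.0 ppm at the tips of mice 1 to 5. It was lower at the tip than in the crypt in 3 of 3 mice, as were *Lama2* and *Lamb2*, so 3 of 8 chains, where 14.2% of all genes were. Its difference was -0.52 (95% interval -2.01 to 0.98). Mouse 4 had the highest value in each villus zone, at 70.6, 103.4 and 126.9 ppm. *Lama3* stood at 50.03, 0 and 1.16 ppm in the crypts and at 0 to 9.84 ppm at the tips. Its highest value, in the crypt of mouse 1, came from 1 section at 96.8 ppm, and the summed level of the 5 epithelial markers listed was 2694 TPM there against 251 and 868 TPM in the other crypts. These markers summed to 715, 722 and 286 TPM in the villus bottom, center and tip of mouse 4, where *Lamb3* was highest. They summed to 1658, 1500 and 1885 TPM in those of mouse 1, where *Lamb3* had 8.11, 4.65 and 9.62 ppm. The part of residual epithelium was not tested for either chain.

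**Figure D4:**
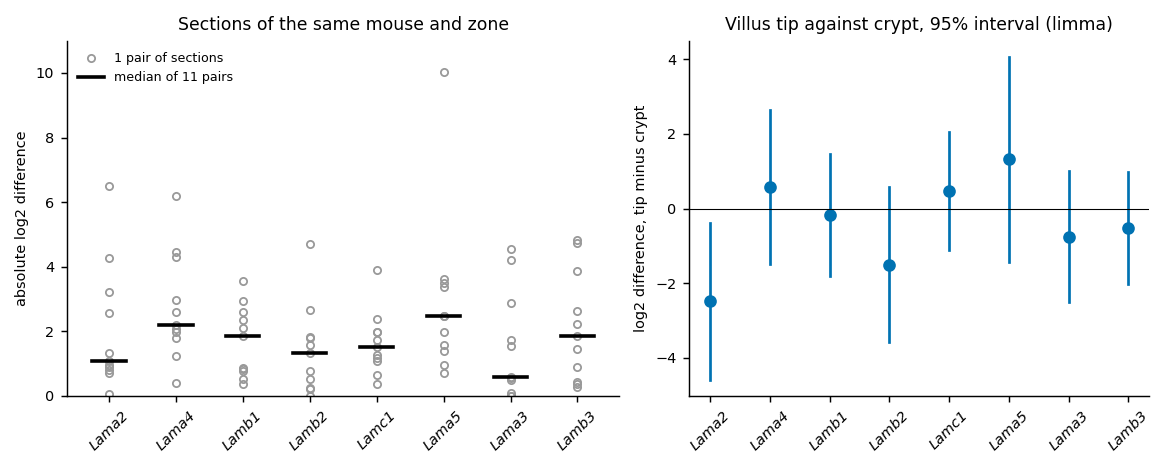
Left, absolute log2 difference within 11 pairs of repeat sections (1 mouse and zone each) for 8 chains (median as a bar), which reaches 10.0 for *Lama5*. Right, the fitted log2 difference of villus tip minus crypt with its 95% interval (limma), which lies below 0 for *Lama2* alone before adjustment.

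Repeat sections from a given mouse and zone differed widely for most chains. The median absolute difference over 11 pairs was 2.46 on the log2 scale for *Lama5*, 2.20 for *Lama4*, 1.85 for *Lamb3*, 1.84 for *Lamb1*, 1.502 for *Lamc1*, 1.31 for *Lamb2*, 1.08 for *Lama2* and 0.58 for *Lama3*. For *Lamb1*, *Lama4*, *Lama5*, *Lamb3* and *Lamc1* this was larger than the fitted difference between villus tip and crypt.

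Over the 18 means, the genes with the closest pattern to *Lama2* among 13535 were *Abhd12b* (Pearson r of 0.88), *Hist1h2ac* (0.83) and *Mdfi* (0.82). For *Lamb2* they were *Synpo2* (0.88), the muscle filament gene *Des* (0.86) and *Tmem215* (0.84). For *Lama5* they were *Srp54a* (0.84), *Scamp3* (0.79) and *Hdgfl2* (0.78), and for *Lama3* *Fam83b* (0.85), *Brip1os* (0.80) and *1700016C15Rik* (0.78). *Lamb3* was most like *Myh8* (0.89), *Speer4b* (0.88) and *Focad* (0.87). The leading genes were *Ebna1bp2* (0.79) and *Il17re* (0.79) for *Lama4*, *Abraxas1* (0.77), *Tbc1d31* (0.72) and *Commd2* (0.72) for *Lamb1*, and *Hdac7* (0.79), *Nedd4* (0.76) and *Stx4a* (0.75) for *Lamc1*. Correlations with the highest rank among so many genes are descriptions, since means of the same mouse are not independent.

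In bulk epithelium *Lamb3* and *Lama3* had the highest levels of the 9 chains, and no chain was called changed by DT. The 8 libraries held 748458 to 4210158 UMIs. *Lgr5*, from whose locus the toxin receptor is expressed, stood at 36.9 ± 25.3 CPM (UMIs per 1000000 UMIs; SD, n = 4) in control and 24.8 ± 18.6 (SD, n = 4) in DT epithelium, a log2 change of -0.75 (edgeR, adjusted p = 0.26). Epithelium detached with EDTA includes crypt cells, and stromal markers were low in it, so *Lgr5* here is no check of the ablation in stroma. *Lamb3* and *Lama3* were the 2 of 9 chains that passed the filter of 10 CPM in at least 2 samples, and 0 of these 2 were called, with or without the batch term, where 32 of 8986 genes (0.356%) were called, 30 lower (0.334%) and 2 higher (0.0223%), by edgeR. At an unadjusted p under 0.05 there were 0 chains and 17.3% of genes.

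*Lamb3* stood at 36.6, 81.5, 42.5 and 21.8 CPM in control samples 1 to 4 and at 17.7, 37.7, 54.96 and 27.8 CPM in DT samples 1 to 4, with the groups overlapping. The change was -0.28 on the log2 scale (95% interval -1.26 to 0.70, adjusted p = 0.76, edgeR). The study's count table places samples 1 and 2 in 1 batch and samples 3 and 4 in another. The mean moved by -1.09 in the first batch and by 0.36 in the second, so its direction did not hold within batches.

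*Lama3* stood at 10.4, 12.02, 24.5 and 3.76 CPM in control and at 10.1, 4.84, 6.90 and 3.52 CPM in DT samples. Control sample 3 was highest, and the groups overlapped. The change was -1.13 ± 0.54 (approximate SE) (95% interval -2.31 to 0.05, adjusted p = 0.30, edgeR), and without control sample 3 it was -0.20. Within batches the mean moved by -0.58 and -1.44. Without the filter on low counts *Lama3* was called lower (adjusted p = 0.0186, edgeR), as 1 of 8 chains with a UMI where 4.1% of genes were called (1.95% higher, 2.15% lower).

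**Figure D5:**
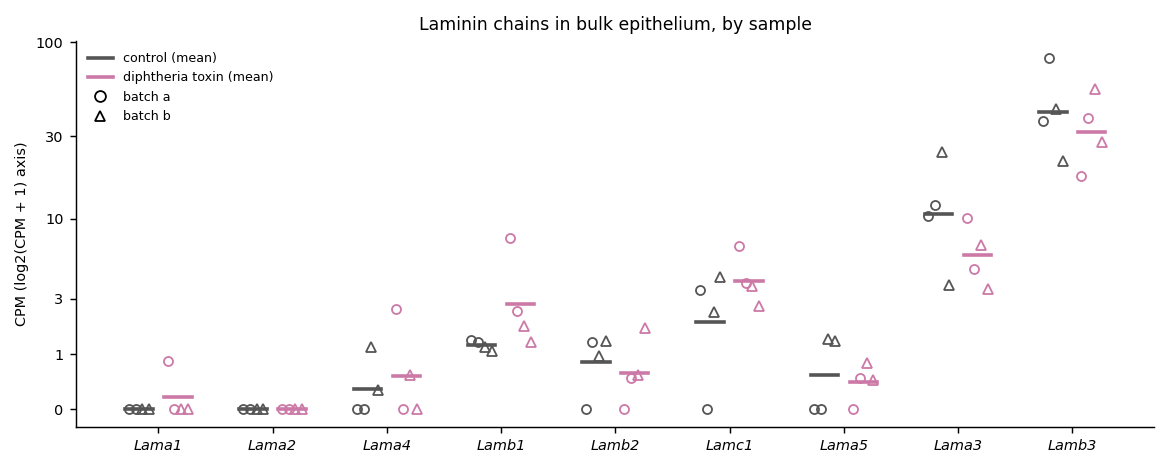
Level of the 9 laminin chains in each epithelium sample in CPM on a log2(CPM + 1) axis, for 4 control (grey) and 4 DT (pink) samples, with circles and triangles for the batches and the mean of the log values as a line. *Lamb3* and *Lama3* are the only chains above 10 CPM, and the groups overlap for each.

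The 6 stromal chains and *Lama5* were low in epithelium. *Lama2* had 0 UMIs in all 8 samples among 19417108 UMIs, which allows up to 0.155 CPM over all 8. *Lamb1* was at 1.25 ± 0.14 CPM (SD, n = 4) in control and 3.30 ± 2.89 (SD, n = 4) in DT samples, and *Lamc1* at 2.53 ± 1.86 and 4.24 ± 1.75. *Lama4* and *Lamb2* were below 1 CPM in both means, *Lama5* had 11 and 5 UMIs in all, and *Lama1* had 1 UMI in 1 DT sample. The 7 mesenchymal markers summed to 10.97 ± 5.2 CPM in control and 10.1 ± 8.1 in DT samples, with 0 and 1 of 7 at 0 in the group, against 7848 and 7199 CPM for 8 epithelial markers. What part of the *Lamb1* and *Lamc1* UMIs came from such cells was not tested.

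The receptors and partners of the laminins were followed as 3 lists. Of 9 laminin receptors 3 were tested in single cells, and the integrin β1 gene *Itgb1* (2.23 on the log2 scale) and the dystroglycan gene *Dag1* (1.62) were called higher in mesenchymal cells, while *Itgb4*, the integrin β chain of anchoring junctions, was called lower (-7.68). Of 12 basement membrane partners 6 were tested and 5 were called higher, namely *Sparc* (9.39), the linker *Nid1* (9.07), *Col15a1* (7.81), *Col4a1* (7.31) and *Col4a2* (6.82), while *Agrn* (-1.21, adjusted p = 0.069, edgeR) was not called. Of 4 genes of epithelial anchoring junctions 3 were tested, and *Plec* was called lower (-1.997), with *Dst* (0.84) and *Cd151* (0.17) not called. As stated, 63.5% of all genes were called in this test. Genes near 0 in either class could enter it only through the sums of the other class. The direction of such calls was set by the filter, and they are given as a description.

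In the microdissected stroma 0 of 8 receptors, 0 of 11 partners and 0 of 2 junction genes were called in any of the 3 comparisons (limma). The collagen gene *Col15a1* was at -3.04 from villus bottom to tip (p = 0.0019, adjusted p = 0.40, limma) and the integrin α7 gene *Itga7* at 2.28 from crypt to tip (p = 0.021, adjusted p = 1.0, limma). In epithelium after DT 0 of 6 receptors, 0 of 2 partners and 0 of 3 junction genes were called (edgeR). *Itgb4* was at -0.47 there, with unadjusted p = 0.011 and adjusted p = 0.22.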

How the data were processed

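The members and the gene lists were chosen with earlier results of these data known. For the LCM samples the deposited values are TPM per gene, which the authors computed with kallisto and sleuth against the coding transcriptome of GRCm38, with a strand-specific setting although the library kit does not mark strand. The authors made UMI counts of epithelium and single cells with zUMIs on GRCm38 and deposited these counts as whole numbers, without normalization. bcl2fastq 2.15.0.4 is named in the submitters' processing notes.

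From TPM, 378 genes were removed, namely the listed ones among the highest genes that together reach 50% of UMIs in control epithelium, except ribosomal and mitochondrial genes, which took 4.98 to 44.7% of a section. Values were then divided by the sum over genes below 1% of the section. The study took such genes from another data set and removed far fewer of them, so levels in ppm need not match its own. The sections of a mouse were averaged within each zone, and limma 3.58.1 was fitted to these means (prior variance with a trend, mouse as block, log2(ppm + 1), genes with a zone mean above 5 ppm). LCM sections listed 5481 to 17306 genes above 0, and depth is unknown, since TPM keeps none.

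Epithelium was tested with edgeR 4.0.16 (filter, TMM and robust quasi-likelihood test as in the study's methods, with a batch term added here from the study's count table) and DESeq2 1.42.0, with R 4.3.3. Cells were wells holding 400 to 8000 UMIs and no fewer than 250 genes, without the subtraction of empty wells used in the study and with no doublet caller. Plates share 384 well barcodes by design, 0 kept cells had identical counts, and 25 cells with markers of both classes were left out. UMIs were summed per mouse and class (at least 5 cells) for edgeR. A further 352 columns (wells) of 1 plate matched no sample and were not used. Levels and folds were computed here from the deposited counts. Adjusted p-values are Benjamini-Hochberg over all genes tested, with a threshold of 0.05, and tests are two-sided.

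Named are all 9 chains and, of the other lists, members past the test and up to 4 others by level. *Itga7*, *Col15a1*, *Itgb4*, *Dst* and *Plec* were named after their values were seen. For likeness, the 3 genes with the highest correlation are named, apart from items not reported here. Fits were tested on simulated data with seeded changes. Same-numbered epithelium samples had correlated deviations (0.61, 0.41, 0.66 and 0.58), and within a batch these were -0.16 and -0.06, so the numbers share the batch and batch was used in the fit. In LCM data the mouse number names the same animal, with correlations from -0.07 to 0.47, and in single cells from -0.03 to 0.08. Alternatives are in the closing section.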

Additional observations from a re-analysis of the deposited data

Results flagged for a closer look

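Of 51 groups of 4 to 10 values tested for a value far from the others by Dixon's ratio, 11 held such a value. In stroma these were *Lama3* at the villus tip of mouse 1 (9.84 ppm), *Lama4* in the villus center of mouse 1 (45.9 ppm), *Lama5* at the villus bottom (196.2 ppm) and the villus tip (527.2 ppm) of mouse 2, *Lamb2* in the villus center (58.9 ppm) and villus tip (8.18 ppm) of mouse 4 and *Lamb3* in the villus center of mouse 4 (103.4 ppm). In epithelium *Lama1* was at 0.843 CPM in DT sample 1, which is 1 UMI, and at 0 in the other DT samples. In single cells *Lama5* was at 0.755 UMIs per 100000 in the mesenchymal cells of mouse G, *Lamb1* at 0.245 and *Lamc1* at 0.0816 in the epithelial cells of mouse A. The values in epithelium and single cells rest on 1 to 3 UMIs each, in groups that are otherwise at 0, where the ratio is at its maximum by construction. The test's rate of about 1 in 20 groups by chance holds for normal values, while the ratio was taken on unlogged, skewed levels. The count of 11 is therefore not set against that rate.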

How the results depend on the processing

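No zone comparison of stroma called a chain under any alternative, leave-one-out fits included. With the first section of each mouse and zone only, the tip minus crypt differences turned to 0.76 for *Lama2*, 0.38 for *Lama3*, -1.05 for *Lama5*, 1.35 for *Lamb1* and 0.84 for *Lamb3*, the bottom minus crypt ones to 0.51 for *Lama2*, 0.24 for *Lama3*, 1.499 for *Lama4* and 0.79 for *Lamb3*, and the tip minus bottom ones to 0.14 for *Lama3*, 0.054 for *Lamb3* and -0.13 for *Lamc1*. Without the replicate block (the mouse), *Lamb3* turned to 0.43 (tip minus crypt) and 0.47 (bottom minus crypt) and *Lamc1* to -0.022 (bottom minus crypt). A pseudocount of 0.1 ppm gave 0.072 for *Lama3* and that of 5 ppm 0.014 for *Lama4* (both bottom minus crypt), and that of 5 ppm gave 0.035 for *Lamb3* and -0.018 for *Lamc1* (tip minus bottom). *Lamb3*, tip minus bottom, was 0.0026 with no enterocyte genes removed and 0.11 with deposited TPM. Leaving out 1 mouse at a time gave, for tip minus crypt, -0.33 to 2.88 for *Lama5* and -0.54 to 0.33 for *Lamb1*; for bottom minus crypt, -0.27 to 0.26 for *Lama4* and -0.53 to 0.75 for *Lamb1*; for tip minus bottom, -0.021 to 0.25 for *Lama2*, -0.45 to 0.20 for *Lama3*, -1.001 to 0.44 for *Lama5*, -0.35 to 0.27 for *Lamb3* and -0.13 to 0.53 for *Lamc1*. In epithelium *Lamb3* ranged from -0.72 to 0.10. Apart from the filter, no alternative changed a count of chains called by over 1.5 times: with no filter beyond 1 UMI, 1 chain was called in epithelium and 8 in single cells, against 0 and 2. With the replicate block in place of batch, 0 chains were called in epithelium, and with the mouse as replicate block 2 in single cells. Leaving out 1 mouse gave 2 to 3 chains in single cells, the third being *Lama4* without mouse B and *Lamc1* without mouse E. Over all genes, epithelium gave 32 calls, 1 without batch, 3 with the block, 143 with DESeq2 and 635 without the filter, and leaving out 1 sample gave 3 to 41. The cause of these shifts was not tested.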

Other observations

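*Lama5* read differently in the 3 measurements. It had the highest median of the chains in microdissected stroma (37.0 ppm), 2 UMIs in mesenchymal and 0 in epithelial cells, and 11 and 5 UMIs in the control and DT epithelium. These levels come from different assays and were not compared by a test. *Lamb1* and *Lamc1* were also seen outside the mesenchymal class, in 8 and 6 of 761 cells with no marker, and 2 of 17 endothelial cells held a UMI of *Lamb1* and 2 of *Lamb2*.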
